A study of Mus musculus with 18 samples.

Results

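Loss of Rbpj under a driver of the basal layer was compared with loss of the same gene under a driver of the Lrig1 compartment of the hair follicle. The comparison was a difference of effects: KR mice against their own controls, minus LR mice against their own controls. Its members were named by their labels and were 12 of the 18 mice of the series. The 4 KR mice (KR 1, 3, 4 and 5) carried K14-CreERT and a deletion of Rbpj, and the 2 KR controls (controls 4 and 6) came from the same cage batch. The 3 LR mice (LR 1, 2 and 3) carried Lrig1-CreERT2 and a deletion of Rbpj, and the 3 LR controls (controls 2, 3 and 5) came from theirs. The labels call the controls matched by batch or litter and do not state which of the alleles they carried. The labels describe tamoxifen, which switches on the Cre recombinase, at 8 weeks of age, and dorsal skin taken 10 weeks later in telogen, when hair follicles rest. Cells of the trypsin-treated, scraped epidermal side were lysed, and poly(A) RNA was counted in 1 library per mouse.

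Rbpj binds DNA on behalf of all Notch receptors: it represses target genes in the absence of Notch and activates them once a cleaved receptor joins it. In skin, Notch signalling is known for driving basal keratinocytes towards suprabasal differentiation and for restraining inflammation, and sebaceous glands also depend on it. The K14 promoter is active in basal keratinocytes of the epidermis, follicle and gland, while Lrig1 marks stem cells of the upper follicle that feed the sebaceous gland. The descendants of a deleted stem cell inherit the deletion under either driver. Each library mixes all cells scraped from the skin, so fewer cells of a type and less RNA per cell cannot be told apart.

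The whole-gene counts do not resolve a deleted exon and so do not check the deletion. Rbpj ran from 40.9 to 45.9 CPM (counts scaled to library size) in KR against 58.1 and 60.8 in its controls, and from 29.9 to 37.9 in LR against 42.7 to 73.1. The groups did not overlap in either cohort, neither effect passed the test, and their difference was 0.20 ± 0.25 (log2, SE, adjusted p = 0.98). Total counts ran from 8076316 to 11239648 in KR, LR and the LR controls, and from 11236817 to 20260259 in the KR controls, 1 of which merges 2 sequencing occasions of 1 mouse. Keratinocyte markers were the base of every library, with mean levels of 11.02 to 11.47 (log2 CPM) over 10 genes. By Xist and Y-linked reads, KR held 2 females and 2 males, KR controls 1 and 1, LR 2 and 1, and LR controls 1 and 2. Genes of the growing hair shaft are low in telogen. Against that label, they stood at 2.00 to 4.39 (mean log2 CPM over 34 genes) in KR 3, KR 4, KR 5, KR control 6, LR 2 and LR control 2. In the other 6 mice they stood at -0.83 to -0.21. The 15 genes of the mitochondrial genome stood at 7.81 and 8.75 in the KR controls and 8.12 in LR control 5, and at 5.82 to 6.70 in the other 9.

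The core letters that Rbpj binds, TGGGAA or TTCCCA on the other strand, were searched in the 250 bases before each RefSeq start (GRCm38.p6). Of 13087 windows of tested genes, 20.7% held a match, against 25.5% of 212 windows of genes called in KR, 23.5% of 149 windows of genes called in LR and 30.4% of 46 windows of genes called in both. Windows were found for 30 of the 44 genes called in both. A match is a description of letters and not of binding. Below are windows of a pair of genes that rose under both drivers and a pair whose rise passed the test in LR and not in KR, shown because each holds a match. They are printed 5′ to 3′ on the gene's strand, with matches in capitals. Mill1 encodes an MHC class I-like protein, Vegfa a growth factor for blood vessels, Gsdma3 a pore-forming gasdermin and Ccl1 a chemokine.
Mill1 (chr7:18245097-18245346, plus strand): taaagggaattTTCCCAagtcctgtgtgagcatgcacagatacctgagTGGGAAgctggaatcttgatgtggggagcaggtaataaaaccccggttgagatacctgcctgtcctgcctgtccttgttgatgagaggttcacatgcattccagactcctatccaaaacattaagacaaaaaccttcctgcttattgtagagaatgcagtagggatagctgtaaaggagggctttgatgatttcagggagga
Vegfa (chr17:46032378-46032627, minus strand, the most upstream of its starts): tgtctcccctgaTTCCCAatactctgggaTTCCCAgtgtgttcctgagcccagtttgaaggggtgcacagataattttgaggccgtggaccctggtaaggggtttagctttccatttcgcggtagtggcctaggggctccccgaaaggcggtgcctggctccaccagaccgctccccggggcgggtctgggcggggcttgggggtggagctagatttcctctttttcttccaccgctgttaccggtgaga
Gsdma3 (chr11:98626099-98626348, plus strand): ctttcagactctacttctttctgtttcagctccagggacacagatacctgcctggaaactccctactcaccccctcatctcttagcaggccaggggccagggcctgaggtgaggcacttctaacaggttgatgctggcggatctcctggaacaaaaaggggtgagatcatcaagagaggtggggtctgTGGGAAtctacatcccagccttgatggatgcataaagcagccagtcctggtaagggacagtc
Ccl1 (chr11:82179813-82180062, minus strand): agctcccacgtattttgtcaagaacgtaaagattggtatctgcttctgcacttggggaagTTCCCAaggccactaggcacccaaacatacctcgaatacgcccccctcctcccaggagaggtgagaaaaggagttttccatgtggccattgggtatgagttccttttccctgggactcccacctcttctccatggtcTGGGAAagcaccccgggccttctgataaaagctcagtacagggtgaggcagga
Mill1, Vegfa and Ccl1 each held 2 matches and Gsdma3 held 1.

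Of 16517 genes tested, 1 differed between the drivers at an adjusted p of at most 0.05, which is 0.00605%. That gene was Gypc, and it was higher in KR. At an unadjusted p of 0.05, 685 genes (4.15%) differed, 431 of them with a positive (2.61%) and 254 with a negative difference (1.54%). The effects themselves were wider: 264 genes (1.6%) were called in KR, 115 higher (0.696%) and 149 lower (0.902%), and 185 (1.12%) in LR, 144 higher (0.872%) and 41 lower (0.248%). KR and LR share no mice and no controls. Over the 16517 genes the log2 effects correlated with a Pearson's r of 0.46 and a Spearman's rho of 0.52, and 71.6% of genes had the same sign, given as a description because genes are not independent. In 327 of the 685 the gap between the control groups was larger than the gap between the mutant groups, and in 358 the reverse held. The control groups themselves differed in 258 genes (1.56%), and the mutant groups compared directly in 844 (5.11%). The batch cannot be told apart from the driver in either of those 2 comparisons, whereas each effect was taken within its batch. Within the batches, the labels give a second name to KR control 6, LR control 5 and a share of KR control 4. No KR or LR mouse has one, so the second name lies on the control side of both effects. What it stands for is not stated. With its share as a covariate the KR count was 12, all higher, and the LR count 146. With 1 mouse left out, the KR count ran from 5 (without KR control 6) to 1353 (without LR control 5), the LR count from 60 (without LR 3) to 246 (without LR 2), and the count for the difference from 1 to 8 (without LR control 5).

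**Figure D1:**
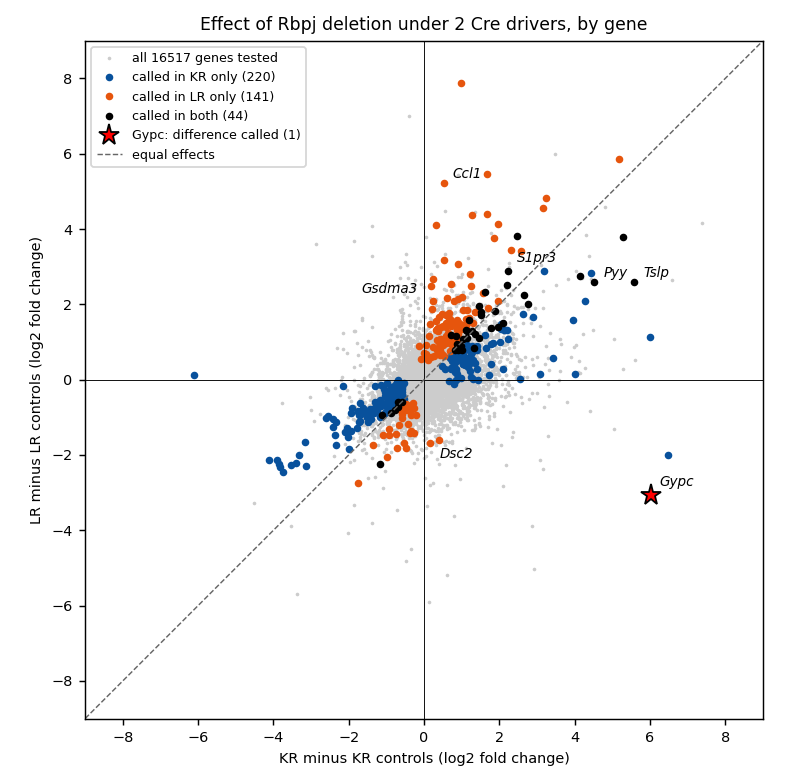
The log2 fold change in LR (y axis) is plotted against that in KR (x axis) for 16517 genes. Grey points passed neither test, blue points passed in KR, orange in LR and black in both. The 44 black points lie at the lower left and upper right, near the dashed line of equal effects, and Gypc (star) lies far to the lower right.

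Gypc encodes glycophorin C, a membrane protein best known for anchoring the red cell skeleton. The gene spans bases 32528322 to 32560034 of chromosome 18 on the minus strand (GRCm38, protein coding). KR 1, 3, 4 and 5 had 15.1, 14.7, 22.2 and 20.2 CPM, against 0.0966 and 0.541 CPM in KR controls 4 and 6. LR 1, 2 and 3 had 0.0959, 0.0862 and 0 CPM, against 0.591, 0.339 and 0.894 CPM in LR controls 2, 3 and 5. Every KR mouse was thus far above its controls, and every LR mouse was slightly below its own. The KR effect was 6.02 ± 0.53 (log2, SE, adjusted p = 2.02e-05). In counts, KR summed 697 against 8 in the controls, a ratio of 72.1 per effective total with an exact 95% interval of 36.4 to 168 for counting error only. LR summed 2 counts against 18, a ratio of 0.101 (0.0114 to 0.422), and its effect did not pass the test (adjusted p = 0.0714). The difference was 9.10 ± 0.93 (95% interval 7.15 to 11.04, adjusted p = 0.000195); because 2 LR counts enter it, its size depends on how so few counts are fitted. The gap between the mutant groups compared directly was 7.90 ± 0.56 (adjusted p = 5.4e-07).

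Library features that varied among the mice were set beside Gypc. KR 1, low in growing-hair genes, had 15.1 CPM of Gypc, and KR 3, 4 and 5, high in them, had 14.7 to 22.2. LR 2, high in hair genes, had 0.0862 CPM. Both sexes of KR were in the same range. The blood cell genes Hba-a1, Hbb-bs and Alas2, the 3 tested of 7 listed, summed to 5.43 to 7.00 CPM in KR and 7.93 to 8.89 in its controls. Of these 3 low genes, 1 had a positive and 2 a negative KR effect, and the part of red cells in Gypc was not tested. In KN1 mice, in which a K14-driven Cre deleted Notch1 instead, Gypc stood at 16.1, 21.8, 14.1 and 14.5 CPM against 0.714 and 0.217 in their controls.

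Esr1, the oestrogen receptor alpha gene on chromosome 10, rose in KR, from 7.63 and 5.14 CPM in the controls to 17.0, 21.8, 25.3 and 24.2, an effect of 1.77 ± 0.30 (adjusted p = 0.012). In LR it had 5.27, 5.78 and 6.03 CPM against 3.19, 3.62 and 5.81, an effect of 0.42 ± 0.29 (adjusted p = 0.511). All KR mice were above all LR mice. The difference of 1.35 ± 0.41 (95% interval 0.50 to 2.21) did not pass adjustment over all genes (adjusted p = 0.98), and Esr1 was named after its values were seen. Esr1 was high in KN1 as well, the other mutant with a K14-driven Cre, in which Notch1 was deleted instead of Rbpj. Counts per gene do not show which transcript gave the reads, and their origin was not tested.

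Tslp, an epithelial cytokine that drives allergic inflammation, rose under both drivers. KR had 9.85, 10.7, 10.0 and 14.1 CPM against 0.193 and 0.27 in the controls. LR 1 had 11.4 CPM, LR 2 had 3.62 and LR 3 had 4.42, against 1.66, 0.904 and 0.715. LR 1 thus lay within the KR range and the other LR mice below it. The effects were 5.58 ± 0.58 in KR (adjusted p = 0.000128) and 2.58 ± 0.42 in LR (adjusted p = 0.00411), and their difference was 2.99 ± 0.72 (95% interval 1.48 to 4.51, adjusted p = 0.928). The KR controls, with 7 counts in all, sat below the LR controls, and between the mutants directly the gap was 0.79 ± 0.34.

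**Figure D2:**
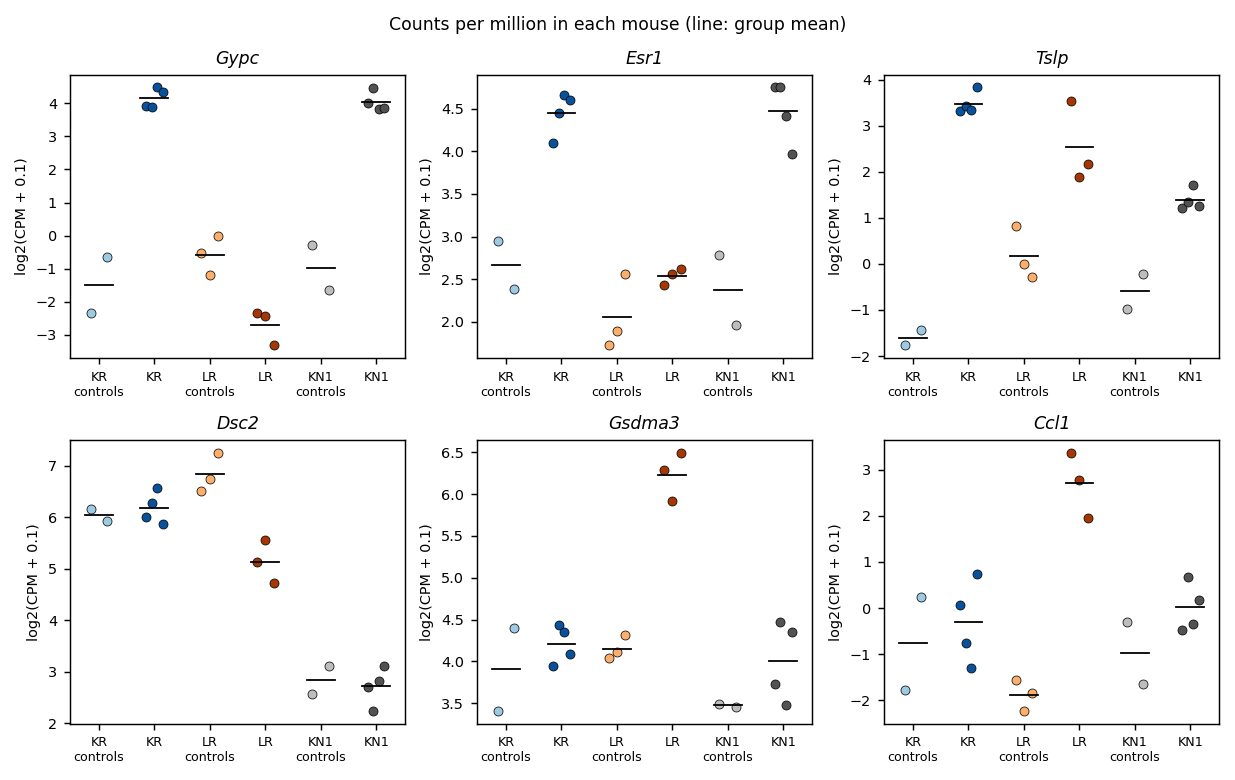
Each point is 1 mouse on a log2(CPM + 0.1) axis, for 6 genes and all 6 groups of the series, with the group mean as a line. Gypc and Esr1 are high in KR and KN1 and not in LR, Tslp is high in KR and LR, and Gsdma3 and Ccl1 have their highest group mean in LR. Dsc2 is low in LR against its controls and lower still in the KN1 cohort, mutants and controls alike.

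The genes with the next smallest p-values are given as values, since none passed adjustment. Several were called in LR and not in KR. Gsdma3 had 78.0, 60.4 and 90.1 CPM in LR against 16.3, 17.2 and 19.8 in the controls, a rise of 2.10 ± 0.26 (adjusted p = 0.000801). In KR it had 15.3, 21.6, 20.4 and 17.0 CPM against 10.5 and 21.1, where the groups overlapped. Its difference was -1.85 ± 0.37 (95% interval -2.64 to -1.07, adjusted p = 0.429). Spsb4, a substrate adaptor of a ubiquitin ligase, had 6.81, 7.42 and 9.59 CPM in LR against 1.66, 1.24 and 1.34, and 2.26 to 3.75 in KR against 2.99 and 2.34. The Spsb4 difference was -2.29 ± 0.46 (adjusted p = 0.429). Slco2b1, an organic anion transporter, had 124, 81.4 and 144 CPM in LR against 33.5, 45.1 and 47.0, and 38.8 to 51.0 in KR against 33.1 and 45.0, with a difference of -1.31 ± 0.28 (adjusted p = 0.584). The LR mice stood clear of all other mice of both cohorts for these 3 genes. A gap between mutants and their own controls in at least 1 cohort was a condition for naming a gene here, so the gap is no further support.

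Ccl1, a chemokine for Ccr8-bearing T cells, showed the same layout at low counts. LR had 10.3, 6.81 and 3.77 CPM against 0.236, 0.113 and 0.179, which are 221 counts against 5, and KR had 0.307 to 1.58 CPM against 0.193 and 1.08. Its difference was -4.69 ± 1.06 (adjusted p = 0.756). Txnrd3, a thioredoxin reductase, and Moxd1, a copper monooxygenase family member, rose in LR by 0.91 ± 0.16 and 0.56 ± 0.12 (adjusted p = 0.00547 and 0.0328), with KR effects of 0.06 ± 0.16 and -0.07 ± 0.13.

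Dsc2 and Gab2 went the other way in LR. Dsc2, the desmosomal cadherin desmocollin 2, had 34.7, 47.1 and 26.4 CPM in LR against 91.2, 106 and 152, a fall with a log2 change of -1.69 ± 0.25 (adjusted p = 0.00163). KR had 57.9 to 95.1 CPM against 70.9 and 60.7. The difference was 1.85 ± 0.36 (95% interval 1.09 to 2.61, adjusted p = 0.429). Dsc2 varied more between cohorts than within either: all 6 mice of the KN1 cohort, controls included, had 4.63 to 8.57 CPM. Gab2, an adaptor of growth factor receptors, fell in LR from 17.6, 21.6 and 31.0 CPM to 7.00, 11.2 and 7.86, and had 13.9 to 15.8 CPM in KR against 18.6 and 16.8, with a difference of 1.16 ± 0.32 (adjusted p = 0.98).

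Other genes were called in KR and not in LR. Ackr3, a scavenging receptor for Cxcl12, had 74.4, 85.0, 72.2 and 100.4 CPM in KR against 35.4 and 35.5, a rise of 1.23 ± 0.19 (adjusted p = 0.0105), and 58.7, 43.2 and 59.4 in LR against 42.7, 41.9 and 51.8. Orai1, the pore of a calcium channel, rose in KR by 0.65 ± 0.15 (adjusted p = 0.0402), with -0.05 ± 0.14 in LR. Thbs1, which encodes the matrix protein thrombospondin-1, rose in KR from 155 and 111 CPM to 335, 445, 257 and 410, an effect of 1.44 ± 0.26 (adjusted p = 0.016). In LR it had 610, 513 and 459 CPM against 496, 583 and 512. For Thbs1 the KR mice moved towards the level that LR mice and LR controls shared, and the KR controls stood apart. Dusp6, a phosphatase of the ERK kinases, showed this as well, with 48.1 and 52.4 CPM in the KR controls, 72.7 to 115 in KR, 90.5 to 114 in LR and 95.2 to 108 in the LR controls. The 26 immediate early genes respond within minutes to cell handling. They were lower in the KR than in the LR controls by a median log2 gap of -1.13. The KR mice were also lower than the LR mice, by a median of -0.64. Among the LR controls, control 5 was at 7.30 (mean log2 CPM of the list) against 8.05 and 8.14 in controls 2 and 3. The part of handling in Thbs1 and Dusp6 was not tested.

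The 44 genes called in both effects were 16.7% of the KR calls and 23.8% of the LR calls, and all 44 had the same direction in both cohorts, 37 higher and 7 lower. With 1 mouse left out, 3 (without KR control 6) to 74 genes (without KR 4) were called in both. The second name given to some libraries lies among the controls of both cohorts. With its share as a covariate, 8 genes were called in both, all in the same direction. Of the 44, the effect was larger in KR for 25 and in LR for 19. For 24 of the 44 the 95% interval of the difference lay within 2-fold in either direction, so a 2-fold difference between the drivers is outside it. For 4 the difference had an unadjusted p of at most 0.05: Tslp and Pyy with the larger effect in KR, Ppp1r18 and Prkcq with the larger in LR.

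Receptors of lipid and immune signals were among the 37. S1pr3, a receptor of sphingosine-1-phosphate, rose by 2.24 ± 0.45 in KR and 2.89 ± 0.41 in LR. Tnfrsf4 and Tnfrsf18, the co-stimulatory receptors OX40 and GITR, rose by 0.94 ± 0.19 and 0.89 ± 0.18 in KR and by 0.80 ± 0.17 and 0.78 ± 0.17 in LR. Icam1, an adhesion molecule for leukocytes, had 54.9 to 74.4 CPM in KR against 28.2 and 27.6, and 115, 117 and 124 in LR against 40.7, 55.0 and 47.3.

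Pyy, Vegfa and Lpo, which encode secreted proteins, were also among the 37. Pyy, a peptide hormone known from the gut, had 627, 1228, 591 and 1124 CPM in KR against 42.1 and 35.7, and 244, 323 and 542 in LR against 45.8, 51.3 and 87.7. All KR mice were above all LR mice for Pyy. The effects were 4.52 ± 0.59 and 2.58 ± 0.46, and the difference was 1.94 ± 0.65 (adjusted p = 0.98). Vegfa had 64.9, 109, 65.8 and 77.9 CPM in KR against 19.8 and 26.9, and 89.8, 72.5 and 102 in LR against 36.5, 34.8 and 30.0. Its effects of 1.77 ± 0.30 and 1.38 ± 0.26 differed by 0.39 ± 0.38 (95% interval -0.41 to 1.18). Lpo, the secreted enzyme lactoperoxidase, rose by 2.11 ± 0.35 in KR and 1.50 ± 0.30 in LR.

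Ifitm3, an antiviral membrane protein, showed the closest match among the well-expressed risers described here. KR had 154, 198, 165 and 206 CPM against 90.1 and 59.4, and LR had 217, 162 and 233 against 94.8, 87.8 and 65.6. Its effects of 1.27 ± 0.20 and 1.30 ± 0.19 differed by -0.03 ± 0.27 (95% interval -0.59 to 0.53). Nfkb2 and Relb, the pair of subunits that act in non-canonical NF-kB signalling, rose by 1.01 ± 0.17 and 0.88 ± 0.18 in KR and by 0.80 ± 0.16 and 0.84 ± 0.16 in LR. Mill1 rose by 1.46 ± 0.23 and 1.12 ± 0.20. Gpc1, a cell surface proteoglycan, rose by 0.85 ± 0.15 and 1.15 ± 0.13, and Ceacam12, of a family of adhesion proteins, by 2.20 ± 0.32 and 2.52 ± 0.28.

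The 7 genes that fell under both drivers were Add3, C2cd2, Cab39l, Ccdc152, Prkcq, Tspan7 and Vps41. Prkcq, a protein kinase C of T cells, had 3.92, 3.57, 4.09 and 2.86 CPM in KR against 6.66 and 9.82, and 1.25, 1.29 and 1.62 in LR against 6.15, 6.10 and 7.24, so every LR mouse was below every KR mouse. Its difference was 1.05 ± 0.43 (95% interval 0.14 to 1.95, adjusted p = 0.98). Cab39l, a partner of the kinase Lkb1, fell in KR from 78.4 and 81.4 CPM to 40.5 to 51.3 and in LR from 51.3 to 67.1 CPM to 24.0 to 36.8. The Cab39l log2 effects were -0.88 ± 0.18 in each cohort. Add3, a protein of the membrane skeleton, changed by -0.70 ± 0.16 and -0.73 ± 0.15, and Vps41, which tethers vesicles to lysosomes, by -0.68 ± 0.13 and -0.59 ± 0.13.

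**Figure D3:**
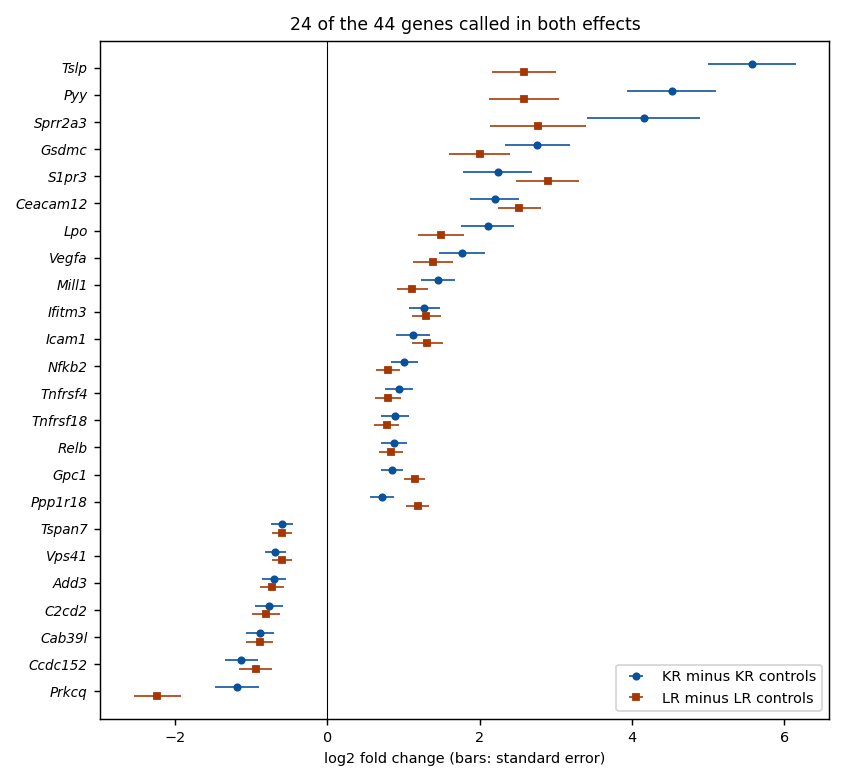
The 24 genes named in the text, of the 44 called in both effects, are ordered by their KR effect, with the log2 fold change in KR (circles) and LR (squares) and its standard error as a bar. The 17 risers drawn lie right of 0 and the 7 fallers left of it in both cohorts, and Tslp, Pyy and Prkcq are the rows where the bars lie furthest apart for their length.

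Genes called in 1 cohort usually had the same sign in the other. Of the 115 called higher in KR, 109 were positive in LR, with a median of 0.78 in LR against 1.26 in KR, and 82 rose at an unadjusted p of at most 0.05 there, against 7.82% of all genes. Of the 149 called lower in KR, 148 were negative in LR, with medians of -0.50 and -0.93. Of the 144 called higher in LR, 141 were positive in KR, with medians of 0.87 and 1.41, and of the 41 called lower, 39 were negative, with medians of -0.54 and -0.94. Genes chosen by a threshold in 1 cohort have their own values raised by that choice, so the gap between these medians is no measure of a difference. Zmynd15, called higher in LR (1.54 ± 0.20), was positive in KR (0.71 ± 0.21, adjusted p = 0.0779), and Macc1 and Phyhip, called lower in KR (-1.16 ± 0.20 and -0.99 ± 0.17), were negative in LR (-0.53 ± 0.20 and -0.44 ± 0.17).

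The design measured a difference of effects less sharply than either effect. The median standard error was 0.34 (log2) over all genes, and 8206 of 16517 genes (49.7%) had a 95% interval of the difference that lay wholly within 2-fold of no difference. Of the 9983 genes with a mean of at least 10 CPM, 7520 (75.3%) did, with a median standard error of 0.26. A p-value above the threshold therefore does not show that the drivers act alike on a gene, and the interval of each is the measure.

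No member of any gene list passed the difference test in the main fit. Lists are described by counts and medians beside the same values over all genes. The medians over all genes were 0.04 in KR, -0.0041 in LR and 0.01 for the difference. Among 30 tested receptors, ligands, co-factors and processing enzymes the medians were -0.09 in KR, -0.03 in LR and 0.10 for the difference. Itch, a ubiquitin ligase that acts on Notch, was the 1 called in KR (-0.76 ± 0.17, adjusted p = 0.0385), and none was called in LR. Mfng, a glycosyltransferase that tunes ligand choice, was the 1 member with an unadjusted p under 0.05 for the difference, against 4.15% of all genes. Mfng had 1.68 to 3.09 CPM in KR against 0.386 and 1.71, and 0.431 to 1.44 in LR against 1.16 to 1.89. Among 13 tested target genes the medians were 0.06, 0.11 and 0.14, and 1 was called lower in KR and none in LR. Hes1, the best known direct target, had 72.2, 37.9, 72.0 and 63.5 CPM in KR against 55.2 and 62.6, and 29.6, 43.7 and 35.1 in LR against 54.9, 54.7 and 39.3. Its effects were 0.06 ± 0.25 and -0.45 ± 0.24, with a difference of 0.52 ± 0.34.

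Lists of the epithelial layers had medians within 0.4 of 0 in both cohorts. The 21 basal genes had medians of 0.13 in KR and 0.02 in LR. Called higher were 3 in KR (Krt14, Thbs1 and Ifitm3) and 1 in LR (Ifitm3), against 0.696% and 0.872% of all genes. Krt14 passed in KR (0.82 ± 0.16, adjusted p = 0.0211) and not in LR (0.48 ± 0.14, adjusted p = 0.116), at a difference of 0.35 ± 0.21. The 45 suprabasal genes had medians of -0.38 and -0.30, and the LR median ran from -0.67 (without LR 1) to 0.02 (without LR 3) with 1 mouse left out. Their summed levels were 17351 to 32650 CPM in KR against 38149 and 38215, where the groups did not overlap, and 14884 to 37840 in LR against 26219 to 45228, where they did. The 18 desmosomal genes had medians of -0.25 and -0.39 (-0.40 in KR without KR control 4, -0.22 in LR without LR 3). Of the desmocollins, Dsc3 fell in KR (-0.75 ± 0.17, adjusted p = 0.0393) with -0.43 ± 0.17 in LR, while Dsc2, described above, fell in LR. The 18 upper follicle genes, those of the compartment that Lrig1 marks, had medians of 0.08 and 0.31 (0.16 in LR without LR control 5). Gata6, a transcription factor of the sebaceous duct, rose in LR from 30.6, 42.7 and 44.6 CPM to 110, 67.3 and 137 (1.41 ± 0.21, adjusted p = 0.00159). In KR it had 52.6 to 60.4 CPM against 37.6 and 38.5 (0.57 ± 0.22, adjusted p = 0.148), and the difference was -0.84 ± 0.30. Lrig1 itself, which the LR driver marks, had effects of 0.28 ± 0.25 and 0.29 ± 0.23.

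Sebum genes parted the cohorts in their medians. Of 37 tested sebocyte genes, 26 were positive in KR and 7 in LR, with medians of 0.52 and -0.47, and 29 had a positive difference, with a median of 0.82. In 9 genes a positive difference had an unadjusted p of at most 0.05, and in no gene a negative one, against 2.61% and 1.54% of all genes, and none passed adjustment in any comparison. Fasn, the fatty acid synthase, had 537, 1764, 675 and 1275 CPM in KR against 688 and 594, and 502, 549 and 515 in LR against 739, 799 and 731. Elovl3, which lengthens fatty acids of sebum, had 24.2, 93.7, 42.2 and 88.4 CPM in KR against 21.25 and 34.1, and 16.2, 17.2 and 14.4 in LR against 31.2, 33.3 and 14.7. In both genes KR 3 and KR 5 were high and KR 1 and KR 4 were near the controls.

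The split within KR ran through the whole sebocyte list. Its mean level was 6.53 and 6.51 (log2 CPM) in KR 3 and KR 5, the female KR mice, and 5.27 and 5.59 in KR 1 and KR 4, the males, against 5.87 and 5.63 in the controls. The LR mice had 5.11, 5.42 and 5.26 and the LR controls 5.72, 5.69 and 5.42, so KR 3 and KR 5 were the mice above all their controls. With sex as a covariate the median difference was 1.07. Without the libraries that carried growing-hair genes it was -0.12, with the KR median at -0.58, a comparison that left KR 1 against KR control 4. The KR median was 0.11 without KR 3, 0.24 without KR 5, 0.33 without KR control 6 and 0.79 without KR 1. In these 4 mice the sebocyte level divided by sex, while hair genes were high in KR 4 as well as in KR 3 and KR 5, and the part of either in the difference was not tested.

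Cholesterol synthesis genes had a like pattern. Of 25 genes, 23 had a positive difference, with a median of 0.53, from medians of 0.07 in KR and -0.47 in LR, and 24 of 25 were negative in LR (median -0.30 without LR 3). An unadjusted p of at most 0.05 was found for 7, all with a positive difference, against 2.61% of all genes with a positive difference at that level. Nsdhl, a sterol dehydrogenase, had 32.3, 40.2, 45.8 and 43.7 CPM in KR against 29.1 and 31.4, and 23.0, 27.9 and 19.1 in LR against 38.5, 33.6 and 26.9, with a difference of 0.92 ± 0.26 (adjusted p = 0.98). Mvd, a step of the mevalonate route, differed by 1.37 ± 0.44. LR control 5, which was high in mitochondrial reads, was at 6.01 for the list, below LR controls 2 and 3 at 6.35 and 6.38, and the LR mice were at 5.48 to 5.93.

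**Figure D4:**
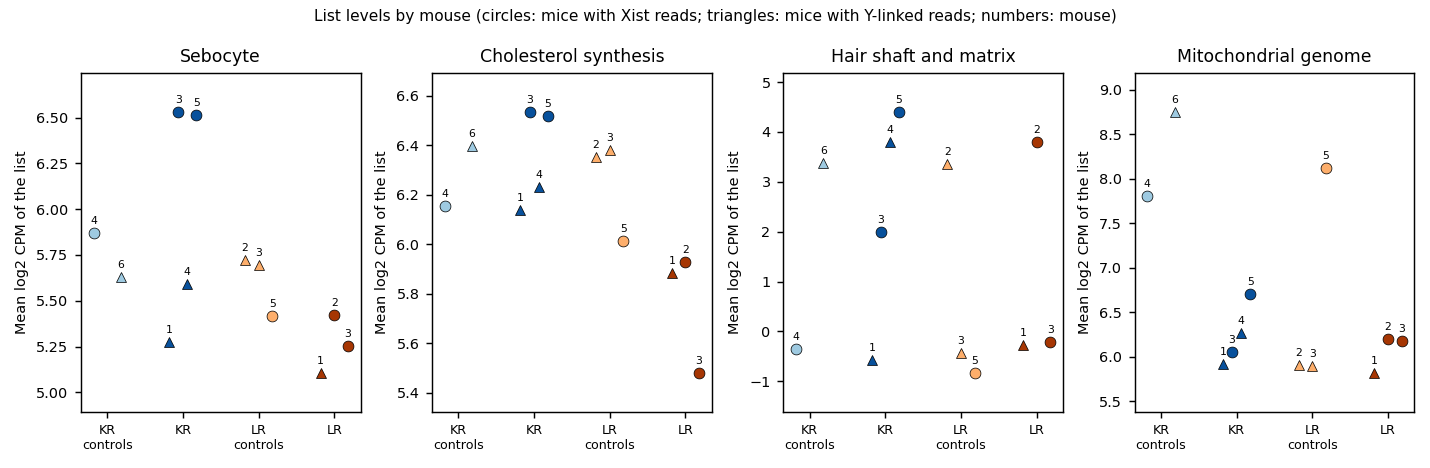
The mean log2 CPM of 4 lists is shown for each of the 12 mice, with the mouse number beside the point, circles for mice with Xist reads and triangles for mice with Y-linked reads. KR 3 and KR 5 stand above all other mice for sebocyte genes, 6 mice stand high for hair genes, and the KR controls and LR control 5 stand high for mitochondrial genes.

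The medians of wound, gasdermin and chemokine genes were positive under both drivers. That of epithelial cytokines was positive in LR alone, while their summed level was lower in the mutants under both drivers. The 18 tested of 34 listed wound and stress genes had medians of 1.93 in KR and 1.20 in LR (0.54 without LR 3). Their summed levels overlapped in KR, at 2604 to 3844 CPM against 2354 and 3187. In LR they did not, at 2349 to 3165 CPM against 1608 to 2258. Sprr2a3, a small proline-rich protein of the cornified envelope that shares sequence with its copies, was called in both (4.15 ± 0.74 and 2.76 ± 0.63). Gasdermins had medians of 1.27 and 2.00 over 5 genes, all positive in both. Gsdmc was called in both, with 36.6, 42.7, 23.9 and 45.5 CPM in KR against 5.41 and 5.59, and 7.96, 5.86 and 16.1 in LR against 1.18, 1.92 and 4.11, and Gsdma3 in LR. Gsdma, of the same family, had effects of 0.02 ± 0.26 and 0.05 ± 0.25. Near-identical gasdermin copies may share reads. The 17 tested epithelial cytokines and growth factors had medians of -0.07 in KR, with 8 positive, and 0.21 in LR, with 9 positive. The LR median was -0.09 without LR 1, 0.05 without LR 2 and 0.13 without LR control 3. Their summed levels were 330 to 427 CPM in KR against 482 and 578, and 288 to 448 in LR against 452 to 481. Every mutant was thus below all its own controls in the sum. Tslp was the member called higher in each cohort. Btc, the EGF receptor ligand betacellulin, fell in KR from 47.2 and 37.9 CPM to 5.58, 6.14, 16.3 and 4.04 (-2.41 ± 0.48, adjusted p = 0.0316), and had 28.4, 10.7 and 5.92 in LR against 31.7, 36.7 and 25.3 (-1.05 ± 0.48, adjusted p = 0.302).

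Of 15 chemokines, 12 were positive in KR and all 15 in LR, with medians of 0.52 (0.85 without KR 4) and 0.98. Ccl2, which attracts monocytes, rose in LR from 7.57, 6.67 and 4.11 CPM to 114, 52.9 and 82.2 (3.77 ± 0.51, adjusted p = 0.00149). In KR it had 7.95, 17.2, 11.8 and 21.6 CPM against 5.12 and 2.70 (1.87 ± 0.55, adjusted p = 0.0822). The Ccl2 difference was -1.90 ± 0.71 (adjusted p = 0.98), and every LR mouse was above every KR mouse. Cxcl16, a chemokine made by epithelium, rose in LR (0.95 ± 0.16, adjusted p = 0.00418) with 0.43 ± 0.17 in KR. Cxcl1, a neutrophil attractant, had 29 counts in KR against 0 in its controls, at least 8.00-fold higher with 3 counts over the controls as the floor, while the LR controls had 0.709 to 1.92 CPM.

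Markers of immune cells that live in the epidermis were followed in the same libraries. Langerhans cell markers (11 tested of 12 listed) had medians of 0.90 in KR and 0.64 in LR, all 11 positive in both (0.53 in KR without KR control 6, 0.39 in LR without LR control 2), with summed levels of 1702 to 1983 CPM in KR against 710 to 1311 in its controls and 992 to 1559 in LR against 641 to 1069. T cell markers (25 tested of 27 listed) had medians of 0.06 and -0.41, 20 of 25 with a positive difference at a median of 0.81. An unadjusted p of at most 0.05 was found for 5, all positive, against 2.61% of all genes with a positive difference at that level. LR control 5 was at 2.98 (mean log2 CPM of the list) against 2.27 and 2.19 in LR controls 2 and 3, and without it the median difference was 0.27 and the LR median -0.10, while the LR median was -0.62 without either of the others. Their summed levels overlapped, from 268 to 370 CPM in KR, 199 to 297 in its controls, 168 to 269 in LR and 267 to 390 in the LR controls. Cd3e, a subunit of the T cell receptor complex, had 9.74 to 13.6 CPM in KR against 11.7 and 6.31, and 6.57 to 11.6 in LR against 13.7 to 15.8. Whether T cells have a part in the fall of Prkcq was not tested; Cd3e had effects of 0.38 ± 0.32 in KR and -0.68 ± 0.30 in LR.

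Markers of cells from below the epidermis also had positive median differences. Endothelial markers (7 tested of 12 listed) had medians of 1.07 in KR, with 7 of 7 positive, -0.06 in LR and 1.26 for the difference. Without KR 3 the KR median was 0.16 and the median difference 0.21, and without KR 4 and LR control 5 in turn the difference was 0.78 and 0.47. Their summed levels were low and overlapped, at 7.60 to 24.6 CPM in KR against 7.92 and 10.8, and 8.36 to 22.9 in LR against 7.33 to 12.5. Macrophage and neutrophil markers (8 tested of 21 listed) had medians of 0.96, 0.07 and 0.78, with sums of 25.5 to 31.2 CPM in KR against 22.4 and 9.28, and 12.4 to 21.9 in LR against 13.1 to 20.0. Their median difference was 0.35 without KR control 6 (KR median 0.38), 1.45 without KR control 4 (KR median 1.66) and 0.50 without LR control 3. Fibroblast markers (12 tested of 15 listed) had medians of 0.36, -0.10 and 0.54, with sums of 416 to 581 CPM in KR against 300.0 and 268, and 215 to 283 in LR against 258 to 281. Without KR control 6 the fibroblast median difference was 1.10 and the KR median 0.76, without KR control 4 the KR median was 0.12, and without LR 2 the difference was 0.81. Vim, the intermediate filament vimentin of mesenchymal and immune cells, was the 1 called member of these 3 lists, with 181 to 206 CPM in KR against 119 and 93.7 (0.86 ± 0.19, adjusted p = 0.0351) and 93.8 to 146 in LR against 78.7 to 106 (0.28 ± 0.17). The part of these cells in the sebocyte, cholesterol and T cell differences was not tested.

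The direction of the cell cycle difference turned when 1 control was left out. Of 40 genes, 39 were positive in LR and 32 in KR, with medians of 0.65 and 0.24, and 3 had a positive difference, with a median of -0.33. None was called in either effect or in the difference. Without KR control 6, which was at 4.80 (mean log2 CPM of the list) against 3.93 in KR control 4, the median difference was 0.14 and the KR median 0.88. Without KR control 4 they were -0.72 and -0.11. Without KR 5 the KR median was 0.08, and the median difference was -0.21 without KR 1 and -0.19 without LR 3. Between the mutant groups directly the median was 0.09. Of the 15 genes of the mitochondrial genome, 6 were called lower in KR and none in LR, against 0.902% and 0.248% of all genes. Their medians were -1.64 and -0.85. All 15 had a negative difference, with a median of -0.85, and the high levels were those of the 2 KR controls and LR control 5. In these 2 cohorts, those are the libraries that the labels give a second name, in whole or in part. With its share as a covariate no gene was called lower in KR. The part of the second name in the mitochondrial levels was not tested. Without LR control 5 the LR median was 0.10 and the median difference -1.64, and mt-Co2, mt-Co3 and mt-Atp6 passed the difference test. Without KR control 6 the median difference was -0.37.

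**Figure D5:**
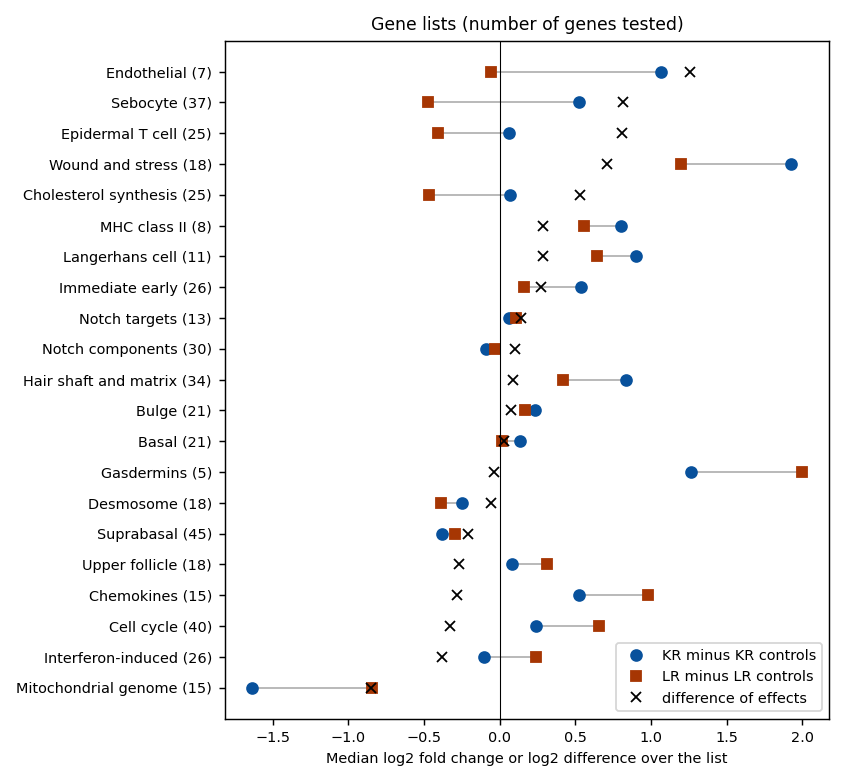
The median log2 fold change of each list is shown for KR (circles) and LR (squares), with the median difference as a cross and the number of tested genes in brackets. The sebocyte, cholesterol, T cell and endothelial lists lie right of 0 in KR and left of it in LR. The interferon-induced list lies the other way round, and several of these points are close to 0. Stress, gasdermin, chemokine and Langerhans lists lie right of 0 in both.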

How the data were processed

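The authors deposited raw counts of reads per gene, 21011 genes in all and 18 mice, with no normalization per the file headers and values. Per the submitters' processing notes STAR, HTSeq and DESeq2 were used with the build mm10; their versions and the use of strand were not stated, so values of overlapping, antisense and near-identical genes are uncertain. Replicates are separate mice, so a p-value here reflects variation from mouse to mouse. Pairs of libraries within a group differed by at least 5.98 in chi-square per degree of freedom, so none was a repeat of another.

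Tests used edgeR 4.0.16 (R 4.3.3): quasi-likelihood F tests, robust, on TMM factors and 6 group means over all 18 mice, which share 1 estimate of the spread (common coefficient of variation 0.225). filterByExpr kept 16517 genes, and Benjamini-Hochberg adjustment was applied over them at 0.05, two-sided. The difference of effects was 1 contrast of that fit. Standard errors come from the F statistic, and 95% intervals from the t distribution. CPM use TMM factors, and log2 CPM of lists a prior count of 2. Of the symbols, 15390 matched GENCODE M21 (GRCm38, the assembly of mm10), the source of gene coordinates; promoter sequences are from RefSeq (GRCm38.p6).

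The rule for named genes took Rbpj, Notch1, Lrig1 and Krt14. It then took up to 12 genes per direction of the difference test with at least 5 CPM and groups apart, filled by p-value and given as values, up to 4 genes per list, 12 of those called in both, and 6 per direction of each effect. Members, lists and rule were chosen with earlier results of these data known. Esr1, Relb, Tnfrsf4, Tnfrsf18, Icam1, S1pr3, Sprr2a3, Gsdma, the neighbours of Gypc other than Tslp, and 6 of the 7 genes that fell in both (all but Prkcq) were named after their values were seen. Alternatives were DESeq2 1.42.0, RLE factors, other filters, a 2-fold minimum, the 12 mice alone, a replicate block, covariates for sex and for the controls that the labels give a second name (KR control 6 and LR control 5 here, and a share of the merged KR control 4), those controls left out, no batch controls, and each mouse left out. A hair gene covariate and the omission of libraries with growing-hair genes were added after the data were seen. Some genes that the naming rule picks are left out here.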

Additional observations from a re-analysis of the deposited data

Results flagged for a closer look

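Gypc was the 1 gene whose effects differed between the drivers by the test of the difference itself, at 9.10 (log2, adjusted p = 0.000195 by edgeR's quasi-likelihood test), higher in 4 of 4 KR mice and lower in 3 of 3 LR mice against their own controls.

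Among the 4 KR mice, 3 genes had 1 mouse far from the other 3, out of 125 groups of values examined, and chance alone sets 1 mouse so far apart in about 1 of 20 groups. Cab39l stood at 51.3 CPM in KR 4 against 40.5 to 40.9 in the others, which puts KR 4 nearer to the KR controls. Gsdmd, a gasdermin, stood at 3.96 CPM in KR 3 against 2.96 to 2.97. Thy1, a surface protein of T cells and fibroblasts, stood at 213 CPM in KR 5 against 99.7 to 109, and its difference of effects was 2.00 ± 0.75.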

How the results depend on the processing

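Gypc kept its direction in all 24 alternatives and was called in 23 of them, with adjusted p-values from 1.1e-09 to 0.205 and a log2 difference from 7.90 to 10.49. Its call was lost (10.49, adjusted p = 0.205) when libraries with growing-hair genes were left out, which leaves KR 1 against KR control 4 and 2 LR mice against 2 controls.

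The count of genes with a called difference, 1 in the report, was 4 with DESeq2 (Gypc, Dsc2, Gsdma3 and Spsb4), 8 without the second-named controls, 0 without growing-hair libraries (254 at an unadjusted p of 0.05) and 844 without batch controls, and 1 to 8 with each mouse left out; it was 8 without LR control 5 and 2 without LR control 2. The KR count of 264 was 145 at 2-fold or more, 1086 with DESeq2, 66 with the 12 mice alone, 531 with sex, 12 with the second-named covariate, 32 without the second-named controls, 0 without growing-hair libraries and 5 to 1353 with a mouse left out. The lowest were without KR control 6 (5), KR 3 (19), KR control 4 (21), KR 5 (24) and KR 1 (65), and the highest without LR control 5 (1353), KR 4 (651) and LR 3 (438). The LR count of 185 was 547 with DESeq2, 40 without growing-hair libraries and 60 to 246 with a mouse left out, lowest without LR 3 (60) and LR control 3 (70), then LR 1 (118) and LR control 5 (119).

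The count between controls, 258, was 168 at 2-fold or more, 759 with DESeq2, 80 with the second-named covariate, 78 without those controls, 0 without growing-hair libraries and 3 to 1311 with a mouse left out, with 3 without KR control 6 and 1311 without LR control 5. The count between mutants, 844, was 371 at 2-fold or more, 1390 with DESeq2, 523 with the hair covariate, 1347 without the second-named controls, 5 without growing-hair libraries and 280 to 1323. The genes called in both effects numbered 0 to 207 over settings and had 1 direction in all settings but 2: 6 of 7 without KR control 4 and 2 of 3 without KR control 6.

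Deviations of same-numbered mice from their group means correlated at 0.066, -0.084 and -0.278. So few pairs, in such small groups, cannot tell whether replicate numbers pair the mice. With a replicate block the counts were 1 for the difference, 66 in KR, 1 between controls and 59 between mutants. The 7 genes other than Gypc whose difference was called without LR control 5 were all negative. They were the mitochondrial genes mt-Co2, mt-Co3 and mt-Atp6 and entries named RP23-8J15. Without batch controls the differences of Hbegf, Mill1, Nfkb2 and Relb, which did not pass in the report, turned negative and passed, at -1.32, -0.72, -0.52 and -0.62. Fewer mice remain in the settings that leave libraries out; for the others the cause was not tested. Genes with few counts, such as Gypc in LR and Cxcl1 in the KR controls, are limited by depth.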

Other observations

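Tslp lies 255.3 kb from Gypc on chromosome 18, and the pair were the KR risers of that stretch. The other 6 tested genes within 500 kb had values as follows, none called in either effect. Bin1, the nearest at 92.6 kb, had 9.02 to 11.05 CPM in KR against 8.11 and 5.95, and 7.10 to 9.70 in LR against 5.54 to 6.74, with a difference of 0.07 ± 0.33. Ercc3, Wdr36, Map3k2, Camk4 and Iws1 had differences of 0.21 ± 0.18, -0.25 ± 0.19, -0.12 ± 0.30, 0.67 ± 0.50 and -0.19 ± 0.22.

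Several genes with a small unadjusted p had effects of opposite sign in the 2 cohorts without either effect being called. For Mgll and Amd1 the LR mice overlapped their controls. Mgll, the lipase that splits monoacylglycerols, had 373, 733, 459 and 648 CPM in KR against 198 and 295, and 173, 254 and 177 in LR against 374, 347 and 179, with a difference of 1.74 ± 0.47 (adjusted p = 0.98). Amd1, an enzyme of polyamine synthesis, had 55.2 to 66.0 CPM in KR against 86.3 and 87.5, and 59.6 to 64.3 in LR against 47.6 to 64.4, with a difference of -0.69 ± 0.20. Npbwr1, a neuropeptide receptor, had 3.26 to 8.60 CPM in KR against 9.13 and 9.82, and 14.2 to 16.01 in LR against 5.76 to 9.10, with a difference of -1.78 ± 0.49.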
